A study of Homo sapiens with 4 samples.

Results

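The replication-dependent histone genes were examined for GapR-GFP peaks in HCT116 cells, an established line from a human colorectal carcinoma. They were the 69 protein-coding genes of the RefSeq table whose symbols are H1-1 to H1-6, or H2AC, H2BC, H3C or H4C followed by a number, out of 20037 protein-coding genes on the nuclear chromosomes. By class they comprised 6 H1, 17 H2A, 18 H2B, 13 H3 and 15 H4 genes. GapR comes from the bacterium Caulobacter and prefers DNA under positive supercoiling, that is, DNA wound too tightly, and CUT&RUN releases the DNA next to the antibody-bound GFP tag. The series held 2 libraries labelled WT and 2 labelled MT. The labels give the WT libraries a wildtype genotype and the MT libraries a double knockout of TOP2A and TOP2B, whereas the series design pairs a wild-type with a mutant GapR. A G1 arrest with palbociclib at 2 µM for 28 h is stated in the labels of all libraries, whereas the design describes asynchronous cells. The files did not settle either conflict, so the groups are named by their labels, and whether S-phase cells were present is not known. Neither how the fusion was expressed nor whether libraries came from separate cultures is stated, so spreads between lists may be technical.

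Core histones H2A, H2B, H3 and H4 form the protein spool around which DNA is wrapped, and the linker histone H1 binds where the DNA enters and leaves it. Their replication-dependent genes are short, mostly lack introns, and end their mRNAs in a stem-loop rather than a poly(A) tail. They lie in clusters and are transcribed at high rates in S phase, in a nuclear body built around the coactivator NPAT. Many H2A and H2B genes are arranged head to head and share the DNA between their starts as a promoter.

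The filtered libraries held 21774260 fragments (WT replicate 1), 27443146 (WT replicate 2) and 23356540 (MT replicate 1, the control of both peak lists). MT replicate 2 entered neither list and was not analysed here. A peak is thus an excess of WT over MT fragments, and 2 lists that share a control give no test between groups. Peaks of the lists with 1 bp or more in common are called shared. A gene was counted when the WT replicate 1 summit of a shared peak lay in it or within 5 kb. Fold enrichment is the authors' ratio of the WT pileup (fragment coverage at the summit) to the local MT level, with 1 added to both and the MT level taken to be on the depth scale of that WT library.

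The promoters of these genes carry short elements that mark the histone class. The 250 bases before the gene start are shown for an H1, an H2B and an H4 gene under a shared peak (H1-2, H2BC17, H4C2) and for a gene of the same class without any peak (H1-5, H2BC10, H4C13). The sequences are RefSeq's (GRCh38.p14), written 5′ to 3′ on the strand of the gene, and all 6 lie on chromosome 6. They are chr6:26056471-26056720 (minus strand) for H1-2, chr6:27867589-27867838 (minus) for H1-5, chr6:27893175-27893424 (plus) for H2BC17, chr6:26272681-26272930 (plus) for H2BC10, chr6:26027284-26027533 (minus) for H4C2 and chr6:27873535-27873784 (minus) for H4C13. Capitals mark the letters TATAAA (those of a TATA box), CCAAT (bound by NF-Y), ATTTGCAT (the OCT1 motif of H2B promoters) and AAACACA (an H1 gene element). They are marked on either strand and anywhere in the window.
H1-2: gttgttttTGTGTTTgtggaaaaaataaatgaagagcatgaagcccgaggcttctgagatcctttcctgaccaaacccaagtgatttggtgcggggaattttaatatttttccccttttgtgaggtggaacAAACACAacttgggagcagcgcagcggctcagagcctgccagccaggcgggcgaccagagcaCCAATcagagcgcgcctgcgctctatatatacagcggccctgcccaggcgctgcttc
H1-5: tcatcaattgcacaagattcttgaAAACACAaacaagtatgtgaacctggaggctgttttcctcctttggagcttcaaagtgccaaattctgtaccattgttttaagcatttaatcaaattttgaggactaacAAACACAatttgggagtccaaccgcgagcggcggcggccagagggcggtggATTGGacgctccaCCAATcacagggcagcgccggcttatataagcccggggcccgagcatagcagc
H2BC17: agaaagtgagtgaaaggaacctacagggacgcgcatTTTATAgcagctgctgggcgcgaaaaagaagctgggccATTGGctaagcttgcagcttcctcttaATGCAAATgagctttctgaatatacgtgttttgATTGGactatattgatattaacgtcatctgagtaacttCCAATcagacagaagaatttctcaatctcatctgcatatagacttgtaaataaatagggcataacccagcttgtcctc
H2BC10: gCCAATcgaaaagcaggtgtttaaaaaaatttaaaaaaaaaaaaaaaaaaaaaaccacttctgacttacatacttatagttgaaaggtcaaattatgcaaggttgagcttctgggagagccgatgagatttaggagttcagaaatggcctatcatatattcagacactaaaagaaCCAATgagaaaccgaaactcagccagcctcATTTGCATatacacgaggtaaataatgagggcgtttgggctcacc
H4C2: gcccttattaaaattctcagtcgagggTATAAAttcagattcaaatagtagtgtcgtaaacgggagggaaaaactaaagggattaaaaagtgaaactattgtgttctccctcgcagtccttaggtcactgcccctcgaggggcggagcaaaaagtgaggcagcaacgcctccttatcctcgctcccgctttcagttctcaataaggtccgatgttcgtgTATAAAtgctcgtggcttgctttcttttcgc
H4C13: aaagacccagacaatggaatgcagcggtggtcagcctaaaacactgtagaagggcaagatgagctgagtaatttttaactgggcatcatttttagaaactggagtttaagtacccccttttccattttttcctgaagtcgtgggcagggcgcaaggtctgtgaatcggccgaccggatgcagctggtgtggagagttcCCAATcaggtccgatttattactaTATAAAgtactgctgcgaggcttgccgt

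Windows of 64 of the 69 genes were found in the RefSeq table, and the missing entries were H4C1, H4C3, H2AC12, H3C11 and H3C12. TATAAA or its reverse complement stood in 42 of the 64 windows (65.6%), against 9.04% of 22049 windows of protein-coding genes. CCAAT stood in 54 (84.4%), against 32.8%, and was found in every H1, H2A, H2B and H3 window but in 3 of 13 H4 windows. ATTTGCAT stood in 26 (40.6%), against 1.59%. It was in 14 of 18 H2B and 11 of 16 H2A windows, many of which overlap because the genes are head to head, so the same letters count for both. The 1 H3 window with it belongs to H3C4, whose RefSeq gene model begins at the start of H2AC7. TATAAA was likewise counted for both genes of a pair, and at any distance from the start. In the H2BC17 window it lies 214 bases before the start, and is the TATAAA found 31 bases before the start of H2AC17. AAACACA stood in all 6 H1 windows and in no other, against 3.81% of protein-coding genes. Median GC content was 42.6% (quartiles 38.8 and 47.7%), against 62.0% (52.0 and 70.4%). Between genes with and without a shared peak, TATAAA stood in 33 of 47 (70.2%) and 9 of 17 windows (52.9%), CCAAT in 38 (80.9%) and 16 (94.1%), and ATTTGCAT in 18 (38.3%) and 8 (47.1%). No motif was thus present in one of these sets and absent from the other, and the differences were not tested.

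A shared peak lay in or within 5 kb of 51 of the 69 histone genes (73.9%). Across all protein-coding genes the share was 66.6%, and across those no longer than the longest histone gene model (29682 bp) it was 57.7%. Most histone genes are far shorter, with a median length of 494 bp and 61 genes under 1 kb. Among protein-coding genes under 1 kb 22.4% had a shared peak, and of the 61 histone genes of that length 43 (70.5%) had one, against 16.1% of the other 466. WT replicate 1 alone placed a summit at 54 histone genes, with a background of 77.9% of protein-coding genes, and WT replicate 2 alone at 51, with a background of 68.3%. How the histone genes stood against all protein-coding genes depended on the reach and overlap. With the summit in the gene itself, 9 of the 69 histone genes had a shared peak, against 46.7% of all protein-coding genes. Within 1 kb the shares were 49.3% and 61.5%, and within 10 kb 84.1% and 70.7%, and with an overlap of 50% of both peaks 43.5% and 49.9%. Against genes under 1 kb, histone genes included, the histone share was the higher at each of these settings (2.28%, 12.3%, 29.6% and 14.2% of the short genes). That histone share covers all 69 genes, 8 of them of 1 kb or more, so the sets differ in length. Of the 9 with the summit inside, only H4C4, H2BC11 and H2BC7 were under 1 kb. Neighbouring genes were reached by the same peak, so they are not independent.

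The 51 genes were served by 37 shared peaks, of which 23 reached more than 1 histone gene and 1 reached 5 (H2BC13, H2AC13, H3C10, H2AC14 and H2BC14). A further 13 peaks of WT replicate 1 and 5 of WT replicate 2 near these genes were not shared. With peaks linked by an overlap, directly or through a peak of the other list, counted once, the lists placed 52 peaks at the histone genes. By class, 4 of 6 H1, 14 of 17 H2A, 13 of 18 H2B, 9 of 13 H3 and 11 of 15 H4 genes had a shared peak. No class was without peaks, and the classes lie intermixed in the clusters.

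H3C12, H2AC17 and H2BC17, which encode H3, H2A and H2B at the far end of the chromosome 6 clusters, lay at the peak that ranked best over both lists. Among the 37 peaks its fold enrichment was the highest in WT replicate 2 and next to the highest in WT replicate 1, after that at H2AC25 and H2BC26. A single WT replicate 1 peak of 6641 bp (chromosome 6, 27889048 to 27895688 in hg38) held all 3 genes. Its pileup was 44 fragments in WT replicate 1 (95% exact Poisson interval 32.0 to 59.1) and 32 in WT replicate 2 (21.9 to 45.2), intervals that cover counting error alone. The fold enrichment was 13.8 and 9.66 (11.7 ± 2.93, mean ± SD, n = 2 lists), above 99.4% and 98.2% of the peaks of each list. The local MT level behind it was 2.26 and 2.41 fragments, close to the lowest level of each list (1.87 and 2.20). Where several WT replicate 2 peaks overlapped a peak, the one with the highest fold enrichment gave the WT replicate 2 values. Here its summit lay 3575 bp from that of WT replicate 1 (27895510), so the values are not from the same position. Another overlapping WT replicate 2 peak, with its summit at 27895513, had a fold enrichment of 9.03. At H2AC25, H2AC15 and H2BC4, described below, the summits lay 1066, 2221 and 1184 bp apart.

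The peak at H4C2 (chromosome 6, 26025250 to 26029979) had a fold enrichment of 10.8 and 8.36 (9.58 ± 1.73, n = 2). At H2AC25 and H2BC26, the pair on the long arm of chromosome 1 (228455493 to 228459579), it was 13.9 and 7.91 (10.9 ± 4.26). H3C6 had 12.9 and 7.37, from pileups of 42 and 28 fragments. WT replicate 1 was the higher at each of these sites. The H4C2 peak had its summit within 5 kb of H4C1 too but did not overlap it. H4C1 lay whole in another shared peak (26020490 to 26023076), with 7.31 and 7.07.

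H1-2, a linker histone gene, lay whole within a peak of 5189 bp (chromosome 6, 26052141 to 26057329) with 12.9 and 7.11. The H4 gene H4C3 had 13.4 and 6.70, a spread of 10.1 ± 4.75 (n = 2) that was the widest among the 10 peaks described here. H1-6, a testis H1 gene, was counted through that H4C3 peak, and no peak overlapped H1-6 itself. H1-1, H2BC6, H2BC13 and H2BC14 were likewise counted through a nearby peak, with none overlapping the gene.

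The H2A and H2B pair H2AC15 and H2BC15 had 8.93 and 6.87, and H2BC4 with H2AC6 had 8.68 and 6.32. On chromosome 1, H2AC19 and H3C15 lay under a peak of 6914 bp with 11.8 and 7.51, and a second peak at the start of H4C15 had 10.8 and 6.86. Over all 37 peaks WT replicate 1 had the higher fold enrichment at 30 (81.1%), against 77.2% of all shared peaks, so this difference between the lists is general.

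**Figure D1:**
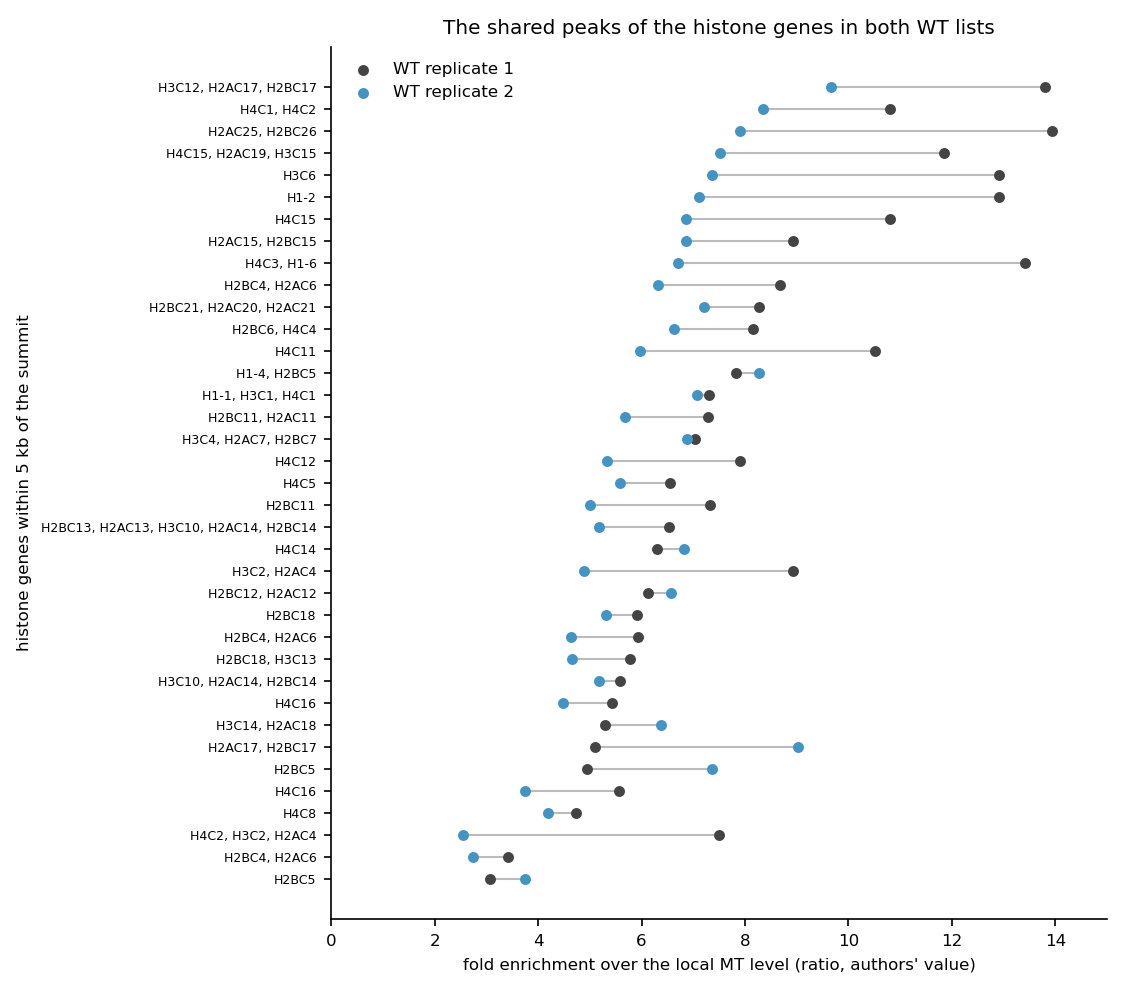
Fold enrichment (the authors' ratio, x axis) of the 37 shared peaks at histone genes in WT replicate 1 (dark points) and WT replicate 2 (blue points, the highest overlapping peak), with a grey line joining both values of a peak and the genes within 5 kb on the y axis. The peak at H3C12, H2AC17 and H2BC17 is at the top with 13.8 and 9.66, and WT replicate 1 is the higher of the lists at 30 of 37 peaks.

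The median fold enrichment at histone genes was 7.31 (quartiles 5.77 and 8.94, 37 peaks) in WT replicate 1 and 5.33 (4.20 and 6.65, 68 overlapping peaks) in WT replicate 2. Over all shared peaks it was 5.92 (4.53 and 7.99) and 4.64 (3.76 and 5.93). The pileup differed more, with medians of 29 and 21 fragments against 20 and 17 over all shared peaks. The local MT level was higher too. Its median was 2.80 (quartiles 2.26 and 3.73) at histone genes in the WT replicate 1 list, against 2.27 over all shared peaks, and 16.2% of the histone peaks stood at the lowest MT level against 37.0%. In the WT replicate 2 list the medians were 2.94 and 2.50, with 13.2% and 32.9% at the lowest level. With peaks at the lowest MT level in both lists alone, 6 histone genes of any length (8.70%) kept a call, against 32.7% of all protein-coding genes and 7.21% of those under 1 kb. Most histone peaks thus stood where the MT level was above its lowest value, and the part of this in the result was not tested.

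Peak length set these sites apart more than their fold enrichment did. The median length at histone genes was 3135 bp (quartiles 1350 and 5130) in WT replicate 1, against 1067 bp (672 and 1656) over all shared peaks and 1156 bp over those within 5 kb of a protein-coding gene. Of the 37 peaks, 19 were longer than 3 kb, against 5.15% of all shared peaks. In WT replicate 2 the median was 1214 bp against 578 bp. Peaks of WT replicate 1 held 36 of the 69 genes from end to end, and peaks of WT replicate 2 held 13. By their WT replicate 1 boundaries, 10 of the 37 shared peaks held more than 1 gene whole, up to 3.

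**Figure D2:**
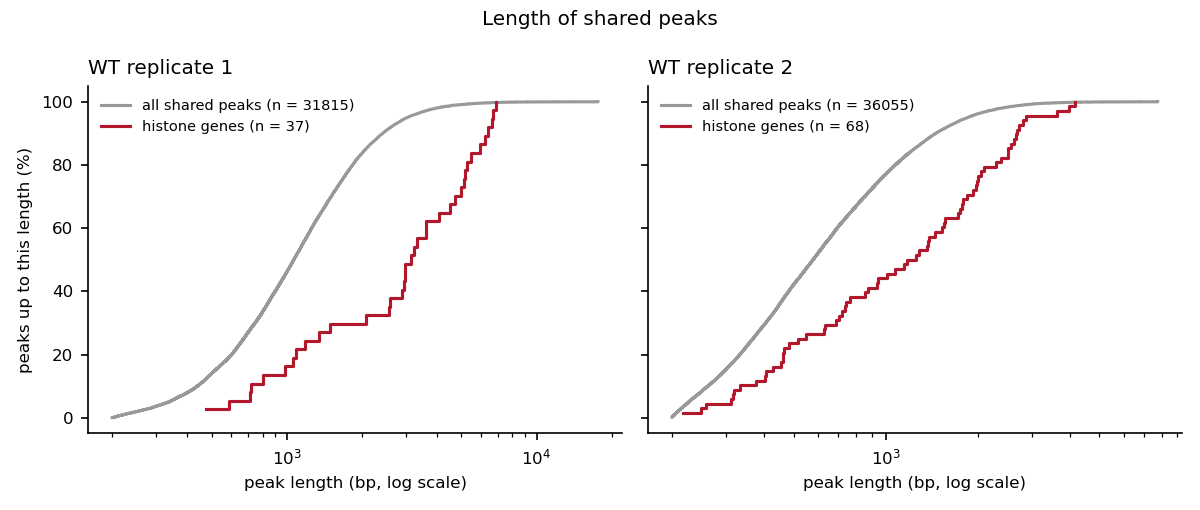
Cumulative share of shared peaks (y axis, %) up to a given length (x axis, bp, log scale) at histone genes (red) and over all shared peaks (grey), for WT replicate 1 with 37 histone peaks (left) and WT replicate 2 with 68 (right). The red line lies to the right of the grey one in both lists, with medians of 3135 and 1067 bp on the left and 1214 and 578 bp on the right.

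WT replicate 2 called the same sites in pieces. Of the 37 WT replicate 1 peaks, 18 (48.6%) overlapped more than 1 peak of WT replicate 2, up to 5, against 12.4% of all shared peaks, and long peaks have more room for this. These 18 peaks held 34 breaks between WT replicate 2 peaks, of which 16 contained at least 1 of the 64 known histone gene starts (20 starts in all) and 18 contained none. Peaks at H4C2, H1-2, H2BC12, H2BC5 and the start of H4C15 had breaks away from a known start alone. A break at H2BC12 did hold the boundary of H2AC12 at 27147106, a gene without a RefSeq start. Among the 47 histone genes with a shared peak and a RefSeq start, a peak of WT replicate 1 covered the start of 40 (85.1%) and a peak of WT replicate 2 that of 15 (31.9%). Over all 10835 protein-coding genes with a shared peak and a start these shares were 70.2% and 48.6%. Over all protein-coding genes with a start, with or without a peak, they were 50.4% and 33.4%, against 40 and 15 of 64 histone genes.

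At 100 bp before the start, 27.7% of the 47 histone genes were under a peak of WT replicate 2, the lowest share within 1500 bp of the start. At 500 bp into the gene the share was 80.9%, and at 500 bp before the start 70.2%. In WT replicate 1 the share was 83.0% at each of these positions and 85.1% at the start. Over all protein-coding genes with a shared peak the shares in WT replicate 2 were 52.6% at 250 bp before the start, 47.5% at 100 bp before it and 57.0% at the highest point, so a shallower gap was present there too. Histone genes in head-to-head pairs share a gap and are counted under both.

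**Figure D3:**
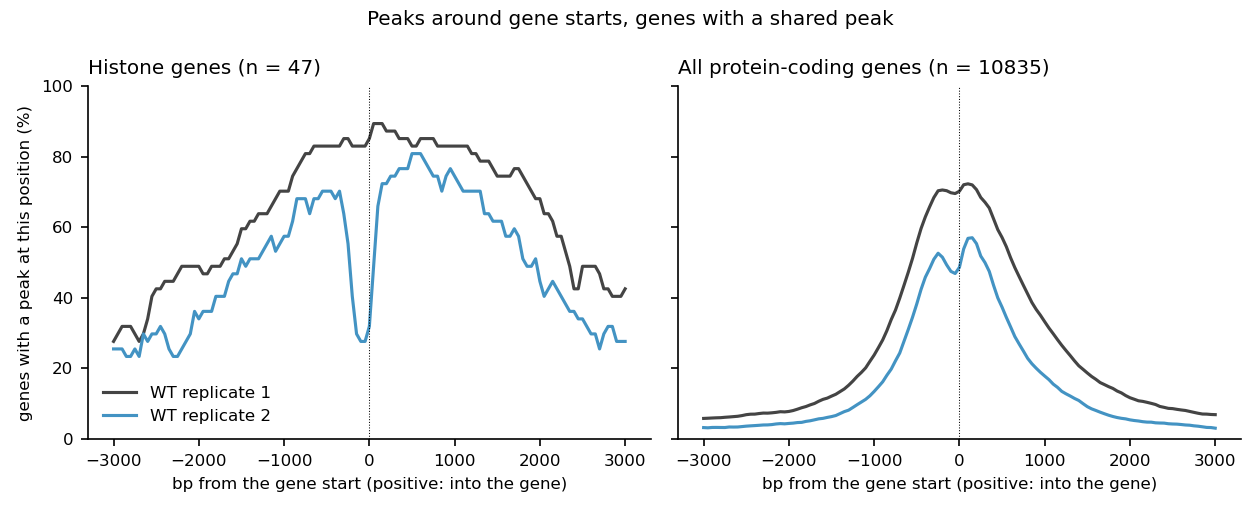
Share of genes with a peak at each position (y axis, %) by distance from the gene start (x axis, bp, positive into the gene), for the 47 histone genes (left) and the 10835 protein-coding genes (right) that have a shared peak. At histone genes the WT replicate 2 line (blue) drops to 27.7% at 100 bp before the start and stands at 80.9% at 500 bp into the gene, while the WT replicate 1 line (dark) is at 83.0% at both positions.

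Single genes show the gap. H2AC15 and H2BC15 start 194 bp apart, head to head, and both lay whole under the WT replicate 1 peak. WT replicate 2 covered 89.7% of H2AC15 and 95.9% of H2BC15, yet the 266 bp around their starts lay between peaks. At H4C12 the stretch without a WT replicate 2 peak was 245 bp, at H2AC17 294 bp, and at the linker histone gene H1-4 318 bp. In all, 25 starts were under a peak of WT replicate 1 and under none of WT replicate 2, and 16 of them had a WT replicate 2 peak within 500 bp on both sides. Other genes did not show it. All 250 bases before the starts of H1-2, H4C2, H4C11, H4C15, H3C6, H3C15, H2BC18 and H2AC21 were under peaks of both lists. The same held for the pairs H2AC11 with H2BC11 and H2AC25 with H2BC26. At H2BC17, printed above, 250 bases were under peaks of WT replicate 1 and 40 under those of WT replicate 2. Coverage between peaks is not part of the lists, so the depth of the gap was not analysed here.

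Summits followed no single position. In WT replicate 1, measured from the nearest of the 64 starts, 9 of 37 summits lay before the start, 11 in the gene and 17 beyond its end. In WT replicate 2 these numbers were 14, 9 and 14. The median distance from the start was 1070 and 957 bp, and the summits of both lists at a shared peak lay a median of 430 bp apart. In clusters this dense, a summit beyond one gene is often near another.

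The 18 genes without a shared peak formed 6 runs of 1 to 7 neighbouring genes, and a reach of 5 kb lets close neighbours be called alike. On chromosome 6, 7 genes in a row from H1-3 to H2BC10 (H1-3, H4C6, H4C7, H3C7, H2BC9, H3C8 and H2BC10, over 39.2 kb from 26234212 to 26273412) had none. To the left the nearest shared summit was 9.92 kb away, at H3C6, which had the high values given above, and to the right 12.4 kb away. H4C6 and H4C7 were within 5 kb of a single peak of WT replicate 1 (pileup 16, fold enrichment 5.92) that WT replicate 2 did not call.

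A second run of 4 genes (H2AC16, H1-5, H3C11 and H4C13, 27865317 to 27873534) lay between stretches with peaks, with shared summits 28.0 kb before and 22.0 kb after it. The nearest shared peak after it was the one at H3C12, H2AC17 and H2BC17. The pairs H2BC3 with H3C3 and H2BC8 with H2AC8 also had no peak in either list. The same held for H2AC1 and H2BC1, the testis H2A and H2B genes, which lie apart at 25726063 to 25727345. H4C9, inside the 8566 bp gene model of H2BC12, was the remaining gene, with a summit of WT replicate 1 alone (pileup 11, fold enrichment 4.18). In total 15 genes had no summit in either list, 3 had an unshared summit of WT replicate 1, and 0 had one of WT replicate 2. A gene without a peak was not called, and its coverage was not analysed here.

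Head-to-head pairs behaved as units. Of 11 H2A and H2B pairs with known starts 194 to 248 bp apart, 9 had a shared peak at both genes and 2 (H2AC1 with H2BC1, H2BC8 with H2AC8) at neither. The neighbours H2BC12 and H2AC12, both with a shared peak, were not among the 11, because H2AC12 had no RefSeq start. With genes this close and a reach of 5 kb, a split pair could hardly occur.

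**Figure D4:**
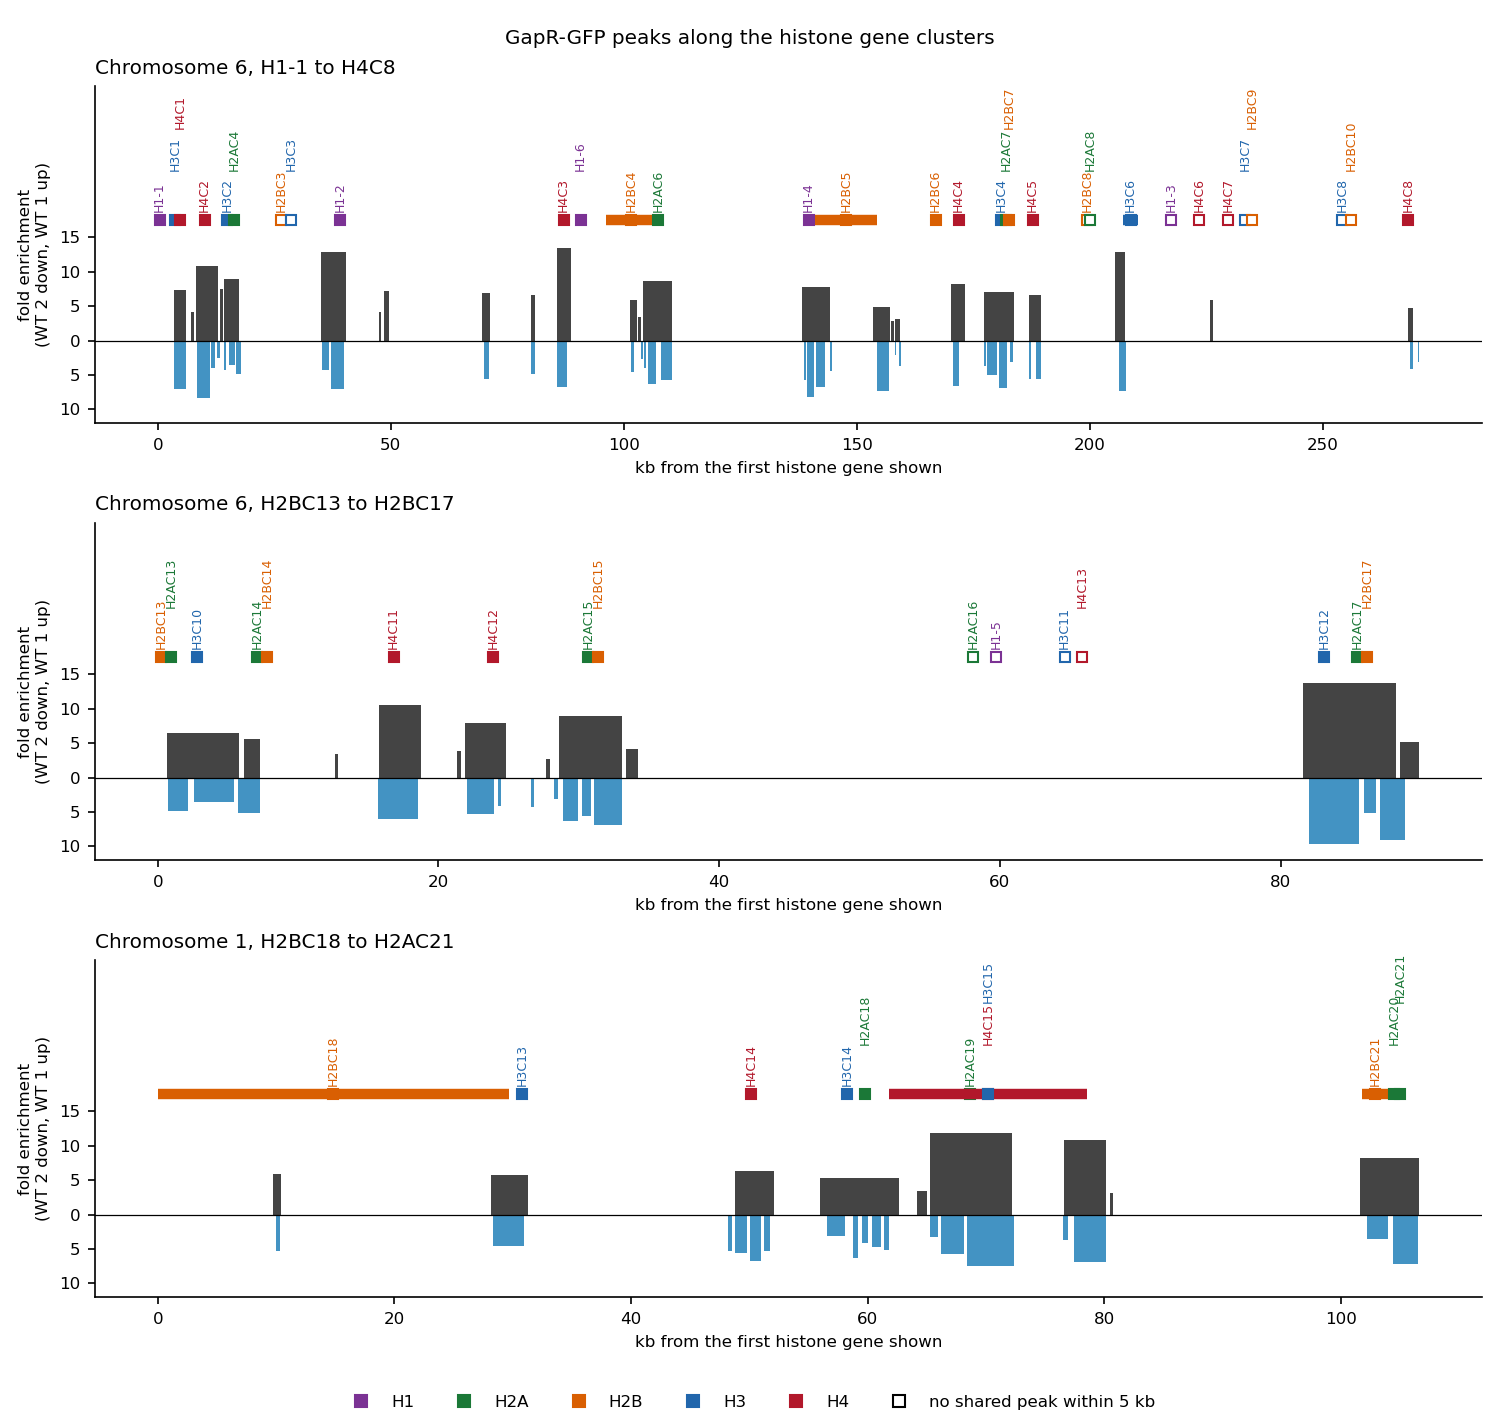
Peaks of WT replicate 1 (dark bars, upward) and WT replicate 2 (blue bars, downward) along 3 histone gene clusters, with the bar height giving the fold enrichment (y axis), the bar width the peak length, and the x axis the distance in kb from the first gene shown. Squares mark histone genes coloured by class, filled where a shared peak lay within 5 kb and open where none did. The longest runs of open squares are H1-3 to H2BC10 (7 genes) and H2AC16 to H4C13 (4 genes).

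By cluster, members no more than 300 kb apart formed 6 groups. The largest, 34 genes on chromosome 6 (25726063 to 26285534), had a shared peak at 21 genes. The next parts of chromosome 6 had one at 4 of 5 genes (27132316 to 27147562) and 12 of 16 (27807479 to 27893891). All 11 genes of the chromosome 1 cluster (149782689 to 149887965) had one, as did H2AC25 and H2BC26 farther along chromosome 1. So did H4C16, an H4 gene and the only gene of the set on chromosome 12 (14770720 to 14771131). H4C16 lay below the medians of the histone peaks, with 5.43 and 4.48 at the peak beyond its end and 5.57 and 3.76 at one before its start. The latter peak also overlapped H2AJ, a replication-independent histone gene.

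The chromosome 1 cluster holds a duplicated stretch, and fragment placement there is uncertain. The 250 bases before H4C14 and H4C15 are identical. Those of H3C14 and H3C15 are identical over 246 bases and those of H2AC18 and H2AC19 over 249, once shifted by 4 and 1. The peaks of the copies differed mainly in the WT replicate 1 list. H4C14 had a fold enrichment of 6.30 and 6.81, and H4C15 had 10.8 and 6.86. H3C14 with H2AC18 had 5.29 and 6.37, and H3C15 with H2AC19 had 11.8 and 7.51. In WT replicate 1 the pileup was 23 fragments at H4C14 (95% exact Poisson interval 14.6 to 34.5) and 30 at H4C15 (20.2 to 42.8), and 24 at H3C14 (15.4 to 35.7) and 33 at H3C15 (22.7 to 46.3), so the intervals of the copies overlapped. In WT replicate 2 it was 24 and 26, and 24 and 23. The summits of the lists lay 844 bp apart at H4C14 and 2500 bp apart at H3C14. The MT level in the WT replicate 1 list was 2.81 at H4C14 and 3.73 at H3C14, against 1.87 at both peaks of the other copy. Without these 6 genes a shared peak was at 45 of 63. H4C11 and H4C12 on chromosome 6 match at 245 of 250 bases, and had 10.5 and 5.97, and 7.90 and 5.33.

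The non-histone protein-coding genes between the histone genes were few. Of 7 such genes, 4 had a shared peak (57.1%, against 66.6% of all protein-coding genes), among them the iron regulator HFE (6.97 and 5.63). The Fc receptor gene FCGR1A and LOC124904411 were both counted through 1 peak of 5.92 and 5.32, which also served H2BC18. The phosphate transporter family genes SLC17A2, SLC17A3 and SLC17A4, between H2BC1 and H1-1, had none in either list.

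Genes that supply histones outside S phase, or act on histone mRNA and protein, had shared peaks at most members. All but H2AJ lie elsewhere in the genome. H2AJ lies beside H4C16 on chromosome 12 (14774405 to 14778002), and the shared peaks counted for H4C16 were counted for H2AJ too. All 11 replication-independent histone genes, H2AJ included, had a shared peak, against 66.6% of protein-coding genes. Among them H2AZ1, an H2A.Z gene, had 11.8 and 9.08. Of 13 genes for histone mRNA synthesis and processing 11 had one. SRRT, which links the cap-binding complex to RNA processing, had 12.2 and 8.06, and LSM10, a subunit of the U7 particle that cuts histone mRNA, had 8.91 and 8.43. The exceptions were NCBP2 and CSTF2, each with 1 summit of WT replicate 1. Of 13 chaperone and deposition genes 12 had one, led by NASP (10.8 and 9.65), a carrier of H3 and H4, and SUPT16H (10.5 and 10.0), a subunit of FACT. ATRX was the exception, with 2 summits of WT replicate 1. NPAT, the coactivator mentioned above, had 6.77 and 11.9. These genes are mostly longer than the histone genes, and longer genes offer more room for a summit.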

How the data were processed

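GapR-GFP was mapped by CUT&RUN with paired-end reads of 75 bp, per the labels' protocols. Per the submitters' processing notes, the build was hg38 and the tools included MACS2 2.1.2, Bowtie2 2.3.4 and ChIPseeker 1.28.3. The authors called narrow peaks with MACS2 for each WT library against MT replicate 1, at a q-value cutoff of 0.05, a smallest length of 200 bp and at most 2 duplicates, per the file headers. The deposited pileup is a signal (fragment coverage), a whole number at every peak and taken as unscaled. The deposited fold is the ratio of pileup to the local MT level, which draws on windows of 1000 and 10000 bp per the file headers. The deposited −log10 q-value comes from the caller's Poisson test.

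The local MT level was computed back as (pileup + 1) / fold − 1. Lowest means within 1% of the lowest level of a list. The lowest level of each list lay close to its WT fragments times fragment size over the effective genome size, so MT levels were taken as scaled to the WT library, although the headers state scaling of the larger dataset towards the smaller. Shared peaks, gene reach (5 kb) and overlaps were computed with Python 3.11.15 and pandas 2.3.3, and tested on simulated intervals. Gene positions and starts came from RefSeq (GRCh38.p14). No test was run, since 2 lists with 1 control give no replicated contrast. Full values were given for the 10 shared peaks ranked by the poorer of their ranks by fold in each list, genes without a shared peak, near-identical copies, genes off chromosome 6, and the best 2 and all unmarked genes of the other lists, of which 1 is not reported here. Genes and lists were chosen with earlier results of these data known. Poisson intervals and pileups come from summits, chosen as the highest points, and reads carry no molecular identifiers.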

Additional observations from a re-analysis of the deposited data

How the results depend on the processing

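The number of histone genes with a shared peak was 51 and the number of shared peaks 37. With summits inside the gene these were 9 and 12 (some long gene models hold several), that is, 9 of 69 histone genes against 46.7% of all protein-coding genes and 2.28% of those under 1 kb. The 69 histone genes include 8 of 1 kb or more. A required overlap of 50% of both peaks gave 30 (43.5% against 49.9% of all genes) and 20, with a median MT level of 2.33 against 2.80, and summits within 250 bp of each other gave 33 genes. With peaks at the lowest MT level they were 6 (8.70% against 32.7%) and 4, with a median MT level of 1.87 by construction. Without either WT replicate the count of genes ranged from 51 to 54. The remaining alternatives, among them reaches of 1 kb and 10 kb (34 genes, 49.3% against 61.5% of all genes, and 58 genes, 84.1% against 70.7%), the other list's summit, a −log10 q of at least 5, a fold of at least 5 and leaving out near-identical genes, stayed within 1.5 times of the main count or of the smaller set of genes. Leaving out the 6 duplicated genes was chosen after seeing the data. Without them the shares of starts under a peak were 82.9% in WT replicate 1 and 31.7% in WT replicate 2. No paired analysis was possible because both lists share MT replicate 1 and no test was run.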

Other observations

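Linker histone genes and 1 histone gene copy outside the symbols used here gave further values. The germ cell linker histone genes H1-7 and H1-8 had no summit within 5 kb in either list, like H2BC12L, an H2B gene on chromosome 21. H1-10, a linker histone gene expressed outside S phase, had 1 shared peak with a fold enrichment of 4.53 and 4.07.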
